A study of Mus musculus with 2 samples.

Results

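The genes described here are 41 astrocyte and radial glia genes, chosen by name for their known place in these cells, out of 43346 Ensembl genes in the tables of a newborn mouse midbrain series. All 41 symbols were found, and 21474 of the 43346 genes are protein-coding. The midbrain, which holds the colliculi above and the tegmentum with its dopaminergic cell groups below, was taken on postnatal day 0 from mice of strain B6NCrl, and the labels name no treatment and no introduced allele. There was 1 group of 2 animals: 1 library of total RNA from the midbrain of pup 1 (replicate 1) and 1 from that of pup 3 (replicate 2). Levels are given as the authors' TPM, in which reads are divided by transcript length and scaled to a fixed library sum, so genes can be compared with each other within a library.

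Radial glia are the progenitors that line the ventricles of the embryonic brain, give rise to neurons and later to glia, and guide migrating neurons along their fibres. Around birth many of them turn into astrocytes, the cells that later take up transmitters, move water and ions, feed serine and glutamine to neurons and secrete proteins that help synapses to form. Most of the 41 genes fall into early members, known from radial glia and the start of gliogenesis, and late members, known from maturing astrocytes. In bulk tissue fewer cells of a type and less RNA per cell cannot be told apart.

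The library of pup 1 summed to 36934868 expected counts and that of pup 3 to 40769103, of which the 41 genes held 0.654% in pup 1 and 0.616% in pup 3. The tissue label was read against En1, a factor of midbrain and anterior hindbrain, which had 8.60 TPM in pup 1 and 7.82 in pup 3, and Otx2, a factor of forebrain and midbrain, which had 50.3 TPM in pup 1 and 51.2 in pup 3. Hoxb4, a gene of the hindbrain and spinal cord, had a count of 0 in both. The pups differed at sex-linked genes: counts of Xist were 2.26 in pup 1, against 10434 in pup 3, and those of Ddx3y were 2618 in pup 1, against 0 in pup 3, while the labels say that sex was not collected. They also differed at a list of 9 hypothalamus and forebrain genes, all lower in pup 1, which is given below beside the differences of the members. Counts were not whole in 11 of the 41 genes (Nfix, Prdm16, Id4, Hopx, Ttyh1, Acsl6, Pla2g7, Glul, Phgdh, Aldh1l1 and Sparcl1, at a tolerance of 0.005), a mark of reads shared with another gene. Exons of 12 of the 41 genes are overlapped by a gene on the opposite strand, and the strand setting of the counting is not given in the sources used here.

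In both pups all 41 genes reached 1 TPM, where 62.1% of protein-coding genes reached that level. A level of 100 TPM was reached in both pups by 15 of them, against 7.85% of protein-coding genes. Their median was 45.1 TPM in pup 1 and 45.1 TPM in pup 3, against 4.52 TPM in pup 1 and 4.70 in pup 3 over all protein-coding genes. The list was put together from genes known in glia, so its level is a description and not a test. A group of 3 stood far above the rest. Fabp7 had 2409.6 TPM in pup 1 and 2336.6 in pup 3, Dbi had 1616 TPM in pup 1 and 1539 in pup 3, and Cst3 had 1003 TPM in pup 1 and 917 in pup 3. Only 24 protein-coding genes were higher than Fabp7 in mean TPM, and 91 were higher than Cst3. Together the 3 held 57.2% of the summed TPM of the 41 genes in pup 1 and 57.7% in pup 3. At the other end, 7 genes were under 10 TPM in both pups, namely Prom1, S100b, Gpc4, Thbs2, Thbs1, Chrdl1 and Hopx.

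**Figure D1:**
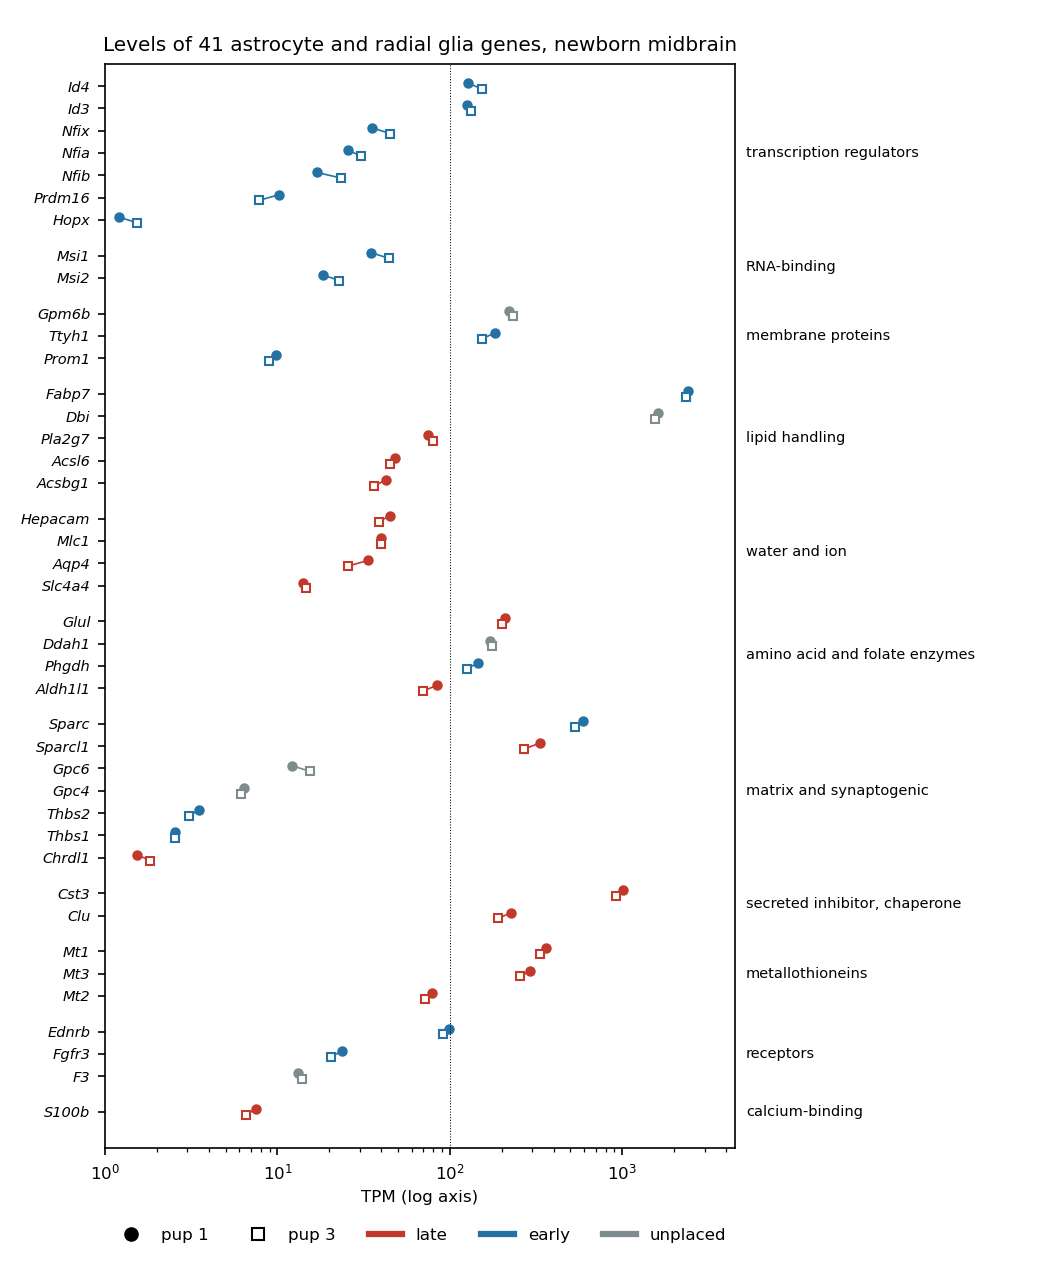
TPM of each of the 41 genes on a log axis, by role, with filled circles for pup 1, open squares for pup 3 and a line joining them; red marks late, blue early and grey unplaced members, and the dotted line stands at 100 TPM. The genes run from Hopx at 1.20 TPM in pup 1 and 1.53 in pup 3 to Fabp7 at 2409.6 in pup 1 and 2336.6 in pup 3, and the pups lie close to each other at nearly every gene.

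Among the transcription regulators, the Id genes were the highest and Hopx the lowest. Id3 and Id4 encode proteins that bind proneural factors and keep them off DNA, and their transcription is raised by BMP signals. Id4 had 128.0 TPM in pup 1 and 152.7 in pup 3, and Id3 had 126 TPM in pup 1 and 133 in pup 3. The log2 ratio of Id4 over Id3 was 0.11 ± 0.12 (SD, n = 2), and their deposited intervals overlapped in pup 1. Nuclear factor I genes drive the change of radial glia to the making of astrocytes. Nfix had 35.1 TPM in pup 1 and 45.1 in pup 3, Nfia had 25.5 TPM in pup 1 and 30.4 in pup 3, and Nfib had 16.9 TPM in pup 1 and 23.5 in pup 3. All 3 were lower in pup 1, and their order was the same in both pups. Prdm16, a zinc finger regulator of neural stem cells, had 10.3 TPM in pup 1 and 7.78 in pup 3. Hopx, an atypical homeodomain protein that marks quiescent stem cells in the adult mouse dentate gyrus, had 1.20 TPM in pup 1 and 1.53 in pup 3, with 29.2 counts in pup 1 and 39.5 in pup 3.

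Of a list of 10 other genes of the NFI and Id families and the BMP pathway, all 10 reached 1 TPM in both pups. Id2, another inhibitor of the same family, was the highest at 171 ± 5.60 TPM (SD, n = 2), above both Id3 and Id4. The lowest was the BMP receptor gene Bmpr1b at 2.39 ± 0.544 TPM. Nfic, another NFI gene, had 17.0 TPM in pup 1 and 14.8 in pup 3, so unlike the 3 NFI members it was higher in pup 1. None of the 10 passed 2-fold between the pups.

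The RNA-binding Musashi proteins repress translation of chosen mRNAs in neural progenitors. Msi1 had 35.0 TPM in pup 1 and 44.4 in pup 3, and Msi2 had 18.4 TPM in pup 1 and 22.9 in pup 3. Msi2 over Msi1 came to -0.94 ± 0.020 on the log2 scale, just short of the 2-fold needed to call the pair apart. Among membrane proteins, Gpm6b, a relative of the myelin proteolipid protein, had 221 TPM in pup 1 and 232 in pup 3, and Ttyh1, a tweety family protein of neural stem cells, had 183 TPM in pup 1 and 154 in pup 3. Prom1, a protein of apical membrane protrusions on progenitors, was far lower at 9.79 TPM in pup 1 and 8.98 in pup 3. So the progenitor markers of these groups spanned more than an order of size in level.

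Lipid-handling genes gave the highest levels of all. Fabp7, the brain lipid-binding protein of radial glia (ENSMUSG00000019874.7, chromosome 10, 57784881 to 57788450, plus strand, mm10), had 39298 counts in pup 1 and 41631 in pup 3, all of them whole. Its transcript of 132 amino acids held 99.6% ± 0.0566 of the gene's TPM. Notch signals, through the DNA-binding protein RBPJ, are known to act on this gene in mouse radial glia, and NFI proteins in human glioma cells. Its promoter is shown because the gene leads the list. The window is RefSeq's, from 250 bases before to 50 after the annotated start, on GRCm38.p6 at chr10:57784673-57784972, plus strand. Capitals mark 1 match of TGGGAA, the RBPJ letters, here on the minus strand, and 1 of TTGGC, one arm of the NFI site.
Fabp7: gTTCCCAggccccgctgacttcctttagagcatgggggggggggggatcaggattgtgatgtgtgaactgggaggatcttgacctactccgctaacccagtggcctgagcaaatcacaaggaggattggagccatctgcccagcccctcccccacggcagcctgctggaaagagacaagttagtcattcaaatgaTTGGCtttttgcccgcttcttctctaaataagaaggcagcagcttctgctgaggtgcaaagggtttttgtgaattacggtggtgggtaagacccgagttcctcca
A match in these letters is not a binding site, and the data hold no measure of binding. TGGGAA was in 25.6% and TTGGC in 46.7% of all 32851 windows of the same length, both strands searched.

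Dbi, the acyl-CoA-binding protein, had 16070 counts in pup 1 and 16606 in pup 3. A transcript of 87 amino acids held 74.6% ± 1.83 of its TPM, and a processed transcript with no annotated protein held 23.2% ± 1.21. Acyl-CoA synthetases activate fatty acids. Acsl6, which acts on long-chain ones such as docosahexaenoic acid, had 48.1 TPM in pup 1 and 45.1 in pup 3, and Acsbg1, of the bubblegum family, had 42.4 TPM in pup 1 and 36.4 in pup 3. Pla2g7, a secreted enzyme that breaks down platelet-activating factor, had 74.8 TPM in pup 1 and 79.7 in pup 3. These 3 enzymes lay between 36.4 and 79.7 TPM, far under both binding proteins. Of 7 other fatty acid binding and acyl-CoA synthetase genes, 6 reached 1 TPM in both pups. The highest, Fabp5, an epidermal form of the binding protein, was at 885 ± 50.9 TPM (SD, n = 2), and the lowest, Acsbg2, had 1 count in pup 1 and 2 in pup 3.

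Genes of the astrocyte endfoot were present at middle levels at birth. Aqp4, the water channel of endfeet, had 33.5 TPM in pup 1 and 25.6 in pup 3, with 3865 counts in pup 1 and 3221 in pup 3. Hepacam, an adhesion protein that holds Mlc1 at astrocyte junctions, had 45.1 TPM in pup 1 and 38.6 in pup 3, and Mlc1 had 39.9 TPM in pup 1 and 39.8 in pup 3. The partners were level within the spread of the pups, with Mlc1 over Hepacam at -0.067 ± 0.16 on the log2 scale. Slc4a4, the sodium bicarbonate cotransporter, had 14.1 TPM in pup 1 and 14.7 in pup 3. It was below Aqp4 by a log2 ratio of -1.02 ± 0.32, with -1.25 in pup 1 and -0.80 in pup 3, so the call rests on the mean of both pups. The call was lost with posterior mean TPM, at -0.96, with a pseudocount of 1, at -0.98, and with counts not divided by length, at -0.81. Of 7 partner genes of the endfoot complex, all 7 reached 1 TPM in both pups, from the gap junction gene Gja1 at 126 ± 6.01 TPM to the potassium channel gene Kcnj10 at 3.19 ± 0.163 TPM.

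Enzymes of amino acid and folate metabolism were high. Glul, which makes glutamine from glutamate and ammonia, had 209.8 TPM in pup 1 and 199.6 in pup 3. Ddah1, which degrades the nitric oxide synthase inhibitor asymmetric dimethylarginine, had 170.0 TPM in pup 1 and 174 in pup 3. Phgdh, the first enzyme of serine synthesis, had 145 TPM in pup 1 and 126 in pup 3, and Aldh1l1, the folate enzyme that serves as a marker of astrocytes, had 84.2 TPM in pup 1 and 69.9 in pup 3. All but Ddah1 were higher in pup 1, each by less than 2-fold. Glul over Phgdh was 0.60 ± 0.095 on the log2 scale and was not called apart. That ratio takes in all transcripts of each gene. The Glul transcript for the full enzyme of 373 amino acids had 35.9 TPM in pup 1 and 34.5 in pup 3. The Phgdh transcript for 533 amino acids was above it, with 145 TPM in pup 1 and 124 in pup 3. Of 8 serine and glutamine partner genes, all 8 reached 1 TPM in both pups, the highest being the neutral amino acid transporter gene Slc1a4 at 62.5 ± 3.78 TPM and the lowest the serine hydroxymethyltransferase gene Shmt1 at 2.89 ± 0.339 TPM.

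Receptors were led by Ednrb, the endothelin receptor of glial progenitors, with 99.2 TPM in pup 1 and 91.7 in pup 3. Fgfr3, a fibroblast growth factor receptor of radial glia and astrocytes, had 23.7 TPM in pup 1 and 20.4 in pup 3. F3, tissue factor, the cell-surface receptor that starts blood clotting and is found on astrocytes in brain, had 13.1 TPM in pup 1 and 13.9 in pup 3. Of 8 other endothelin and FGF ligand and receptor genes, 7 reached 1 TPM in both pups. The highest was Fgfr1 at 16.4 ± 0.587 TPM, below both Fgfr3 and Ednrb. The lowest was the ligand gene Fgf2, with 0.32 TPM in pup 1 and 0.43 in pup 3, with 5.31 counts in pup 1 and 4 in pup 3.

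Secreted proteins that act on matrix and synapses spanned the widest range. Sparc, which in cultures of rodent neurons opposes the synapse-forming action of its relative hevin, had 590.2 TPM in pup 1 and 529.8 in pup 3. Sparcl1, which encodes hevin, had 333 TPM in pup 1 and 267 in pup 3. Sparcl1 over Sparc was -0.91 ± 0.11 on the log2 scale, short of 2-fold. The Sparc level takes in a retained intron transcript of 741 nt, with 263 TPM in pup 1 and 236 in pup 3. Its transcripts for 302 and 301 amino acids had 142 and 107 TPM in pup 1, and 133 and 99.3 in pup 3. Each of these was below Sparcl1. The other 5 genes were low. The thrombospondins, which raise synapse number, had 3.53 TPM in pup 1 and 3.05 in pup 3 for Thbs2 and 2.53 TPM in both pups for Thbs1. The glypicans, which bring AMPA receptors to young synapses, had 12.1 TPM in pup 1 and 15.4 in pup 3 for Gpc6 and 6.44 TPM in pup 1 and 6.14 in pup 3 for Gpc4. Gpc6 was above Gpc4 by 1.10 ± 0.29 on the log2 scale, with 0.90 in pup 1 and 1.31 in pup 3, so in pup 1 alone the ratio was short of 2-fold. Chrdl1, which favours mature AMPA receptors, had 1.53 TPM in pup 1 and 1.83 in pup 3, with 130 counts in pup 1 and 175 in pup 3. Chrdl1 was the lowest gene of the group in both pups. Of 9 other genes of these families, all 9 reached 1 TPM in both pups, from the matrix proteoglycan gene Spock1 at 72.5 ± 4.82 TPM to Thbs4 at 1.39 ± 0.113 TPM.

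Cst3, the secreted protease inhibitor cystatin C (ENSMUSG00000027447.6, chromosome 2, 148871722 to 148875692, mm10), had 17618 counts in pup 1 and 17621 in pup 3. Clu, the extracellular chaperone clusterin, had 227 TPM in pup 1 and 190 in pup 3. Clu was below Cst3 by a log2 ratio of -2.21 ± 0.089, or 4.62-fold. Microglia are also known to make much Cst3, so its level in tissue is not that of astrocytes alone. Levels of the other members, too, are those of the whole tissue and were not assigned to cell types. S100b, a calcium-binding protein of maturing astrocytes, was low, with 7.52 TPM in pup 1 and 6.57 in pup 3, with 241 counts in pup 1 and 230 in pup 3.

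Metallothioneins are small proteins that bind zinc and copper through cysteines, and Mt3 is the form enriched in brain. These 3 genes lie together on chromosome 8 of mm10, plus strand, in the order Mt3 (94152607 to 94154146), Mt2 (94172664 to 94173568) and Mt1 (94179082 to 94180327). Mt1 had 361 TPM in pup 1 and 333 in pup 3, Mt3 had 293 TPM in pup 1 and 256 in pup 3, and Mt2 had 79.1 TPM in pup 1 and 72.2 in pup 3. Mt2 was below Mt1 by a log2 ratio of -2.20 ± 0.012, or 4.59-fold, while Mt3 over Mt1 was -0.34 ± 0.055. Mt2 was called apart from Mt1, whereas Mt3 was not called apart from Mt1. Mt3 was also above its neighbour Mt2 in both pups, a pair that was not among those read. The coding sequences are shown because Mt1 and Mt2 differ so in level and are so alike in sequence, and capitals mark the cysteine codons.
Mt1: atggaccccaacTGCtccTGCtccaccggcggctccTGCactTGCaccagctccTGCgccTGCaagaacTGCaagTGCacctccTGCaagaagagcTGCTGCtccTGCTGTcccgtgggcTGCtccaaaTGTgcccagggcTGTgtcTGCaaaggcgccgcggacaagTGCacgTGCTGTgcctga
Mt2: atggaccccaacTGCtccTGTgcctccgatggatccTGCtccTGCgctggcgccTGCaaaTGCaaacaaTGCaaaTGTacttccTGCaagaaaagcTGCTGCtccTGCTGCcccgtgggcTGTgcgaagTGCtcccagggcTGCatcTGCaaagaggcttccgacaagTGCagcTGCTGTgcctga
Mt3: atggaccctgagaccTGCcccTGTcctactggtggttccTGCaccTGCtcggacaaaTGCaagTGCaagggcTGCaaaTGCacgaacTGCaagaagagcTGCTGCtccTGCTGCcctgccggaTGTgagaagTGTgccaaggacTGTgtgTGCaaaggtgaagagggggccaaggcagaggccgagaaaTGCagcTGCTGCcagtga
Mt1 and Mt2 have 61 codons before the stop and Mt3 has 68, and each has 20 cysteine codons. Mt1 and Mt2 are identical at 148 of 186 bases (79.6%), and their counts were whole in both pups, as they are where no read is shared between genes.

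Metallothionein genes are known to be switched on by the zinc-sensing factor MTF1 at metal response elements. Their RefSeq promoter windows on GRCm38.p6, plus strand, lie at chr8:94178839-94179138 for Mt1, chr8:94172368-94172667 for Mt2 and chr8:94152357-94152656 for Mt3. They are shown because these neighbours differ in level, with capitals for matches of TGCGCNC and TGCACNC on either strand. Both forms cannot match at the same place on the same strand.
Mt1: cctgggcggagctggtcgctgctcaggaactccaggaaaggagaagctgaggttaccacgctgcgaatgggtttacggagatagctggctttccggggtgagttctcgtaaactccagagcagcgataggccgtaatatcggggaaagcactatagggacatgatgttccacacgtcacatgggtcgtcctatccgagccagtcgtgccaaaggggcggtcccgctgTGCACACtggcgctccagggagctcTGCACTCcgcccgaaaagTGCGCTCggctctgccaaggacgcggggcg
Mt2: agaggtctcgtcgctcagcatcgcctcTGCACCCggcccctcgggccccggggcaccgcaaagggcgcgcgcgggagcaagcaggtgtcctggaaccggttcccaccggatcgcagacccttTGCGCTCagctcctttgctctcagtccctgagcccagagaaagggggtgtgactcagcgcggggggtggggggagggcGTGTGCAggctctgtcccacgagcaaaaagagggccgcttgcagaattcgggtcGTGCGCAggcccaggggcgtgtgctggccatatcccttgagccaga
Mt3: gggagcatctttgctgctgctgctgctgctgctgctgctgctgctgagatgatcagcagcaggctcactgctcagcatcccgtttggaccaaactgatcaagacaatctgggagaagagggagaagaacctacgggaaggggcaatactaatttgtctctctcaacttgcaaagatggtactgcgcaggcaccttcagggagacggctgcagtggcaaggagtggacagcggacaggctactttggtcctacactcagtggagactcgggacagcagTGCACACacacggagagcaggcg
The Mt2 window held 4 matches, the Mt1 window 3 and the Mt3 window 1. Bases outside these windows, whose place depends on the annotated start, were not searched. Whether these matches have a part in the levels was not tested. Of 4 genes that regulate or join metallothioneins, Mtf1 was the highest at 19.9 ± 1.55 TPM. The lowest was Mt4, a metallothionein of stratified epithelium, with 1 count in pup 1 and 0 in pup 3.

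Across the list, promoter windows were found for 33 of the 41 genes, 45 windows in all, since some genes have several annotated starts. TGCGCNC was in 35.6% of these windows and in 15.4% of all windows, and TGCACNC in 13.3% and 12.6%. TTGGC was in 53.3% of the windows of the list and 46.7% of all windows, and TGGGAA in 24.4% and 25.6%. The full NFI palindrome, TTGGC and then GCCAA after 5 bases of any kind, was in none of the 45 windows and in 0.0365% of all windows. TATAAA was in 6.67% of the windows of the list and 13.6% of all windows. The windows of the list held a median of 14 CG pairs and all windows a median of 7. Matches of different motifs were counted each on its own, overlaps included, and no match says only that these letters are not in the window.

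The late members were set against the early ones within each library. The 17 late members had a median of 74.8 TPM in pup 1 and 69.9 in pup 3, and the 18 early members had a median of 30.2 TPM in pup 1 and 37.4 in pup 3. On the log2 scale the late median was above the early one by 1.32 in pup 1 and 0.93 in pup 3 (1.13 ± 0.28, SD, n = 2). Genes are not replicates, and the result rests on where members are placed: without 10 members whose stage is contested (Fgfr3, Ednrb, Hopx, Sparc, Thbs1, Thbs2, Aldh1l1, Mt1, Mt2 and Mt3) it was 0.097. By summed TPM, with Fabp7 among the early members, the order was the other way round. Late members held 32.9% of the summed TPM in pup 1 and 31.2% in pup 3, and early members 43.9% in pup 1 and 44.9% in pup 3. The remaining 6 genes, among them Dbi and Gpm6b, were placed in neither stage. Of 20 other astrocyte and radial glia genes, all 20 reached 1 TPM in both pups, from the glycolytic enzyme gene Aldoc at 226 ± 49.7 TPM to the hedgehog pathway factor gene Gli3 at 3.00 ± 0.424 TPM. Gfap, the filament protein of mature astrocytes, named here after its values were seen, had 20.7 TPM in pup 1 and 17.6 in pup 3.

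The late markers set over Fabp7 gave the steepest ratios. S100b was below Fabp7 by a log2 ratio of -8.38 ± 0.10 (SD, n = 2), or 333-fold. For Aqp4 the log2 ratio was -6.33 ± 0.24, and for Aldh1l1 it was -4.95 ± 0.16. Glul came to -3.53 ± 0.019 and Sparcl1 to -2.99 ± 0.19, with Sparcl1 at -0.90 by counts not divided by length. All 5 late markers were below the radial glia gene in both pups, by sizes from 7.95-fold to 333-fold. Fabp7 was the highest of the 41 genes, so the direction of these 5 ratios was fixed beforehand and only their sizes can be read. They say nothing of late against early members at large. With other early members below, Glul over Phgdh was 0.60 and Sparcl1 over Sparc was -0.91, neither apart. In all, 19 pairs were read and 9 were called apart, which asked for the same sign in both pups, a mean over 1 in size and over 3 SD, and deposited intervals that do not overlap in either library. In 8 of the 9 the gene named first was the lower one, 5 of them being the pairs over Fabp7, and Gpc6 over Gpc4 was the exception. Of the 9, 6 were apart under each alternative tried, and Sparcl1 over Fabp7, Slc4a4 over Aqp4 and Gpc6 over Gpc4 were not. With 2 animals the smallest p of an exact sign-flip test is 0.5, so no p is given. Among the 10 pairs not apart, Nfib over Nfia was -0.48 ± 0.16, Nfix over Nfia 0.52 ± 0.076 (-1.43 by counts not divided by length), Thbs2 over Thbs1 0.36 ± 0.14 and Acsl6 over Acsbg1 0.25 ± 0.091.

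**Figure D2:**
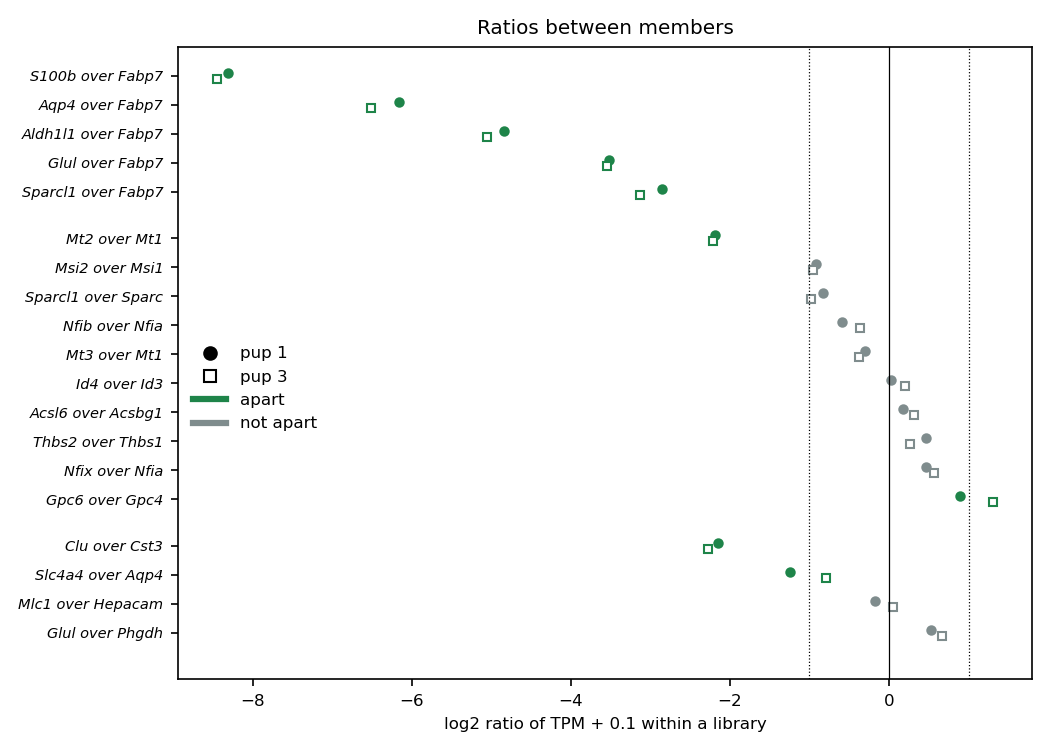
Log2 ratio of TPM, after adding 0.1, within each library for 19 pairs of genes, with filled circles for pup 1 and open squares for pup 3, green where the pair was apart and grey where not; dotted lines mark a size of 1. The 5 late markers over Fabp7, the highest of the 41 genes, lie farthest to the left, down to -8.38 for S100b. Most family pairs lie within 1 of zero.

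Between the pups, 40 of the 41 genes had a mean count of 100 or more and could be compared, Hopx being the one below. None of the 40 passed 2-fold, against 0.315% of all 13318 genes so compared. The differences are log2 of TPM after adding 0.1, pup 1 minus pup 3, and each animal has 1 library, so they have no replicate check. Of the 40 genes 25 were higher in pup 1, where 44.9% of all genes were, 14 were lower and Thbs1 was equal. The median difference was 0.082 over the list and -0.018 over all genes, and the median size was 0.19 over the list and 0.11 over all genes. The differences of the list were thus small, though larger in size at the median than those of all genes.

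By stage, late members were more often higher in pup 1 than not. Of the 17 late members 14 were higher in pup 1, with a median of 0.13, the exceptions being Pla2g7, Slc4a4 and Chrdl1. Mlc1 was higher by 0.0040 alone. Of the 17 early members compared 9 were higher in pup 1, with a median of 0.044. The list of 20 other astrocyte and radial glia genes, not placed by stage, was evenly split. In it 10 genes were higher in pup 1 and 10 lower, with a median of 0.037. Aqp4 had the largest difference of the late members, 0.39, with a 95% counting interval of 0.32 to 0.46. Sparcl1 followed at 0.31, then Aldh1l1 at 0.27, Clu at 0.26 and Hepacam at 0.23. The 3 metallothioneins were all higher in pup 1, by 0.12 to 0.19. Among early members, the 3 NFI genes and both Musashi genes were lower in pup 1, from -0.25 for Nfia to -0.47 for Nfib. Nfic, an NFI gene that is not a member, was higher in pup 1, at 0.20. Prdm16 was the other way, at 0.39. The values of Nfib and Prdm16 moved with the scale: with counts scaled by edgeR's TMM factors and not divided by length, Nfib was at -0.31 and Prdm16 at 0.17. On that scale the median of all genes was 0.012 and 53.0% of them were higher in pup 1. On the same scale 26 of the 40 genes were higher in pup 1, 14 of the 17 late members and 10 of the 17 early ones. With TPM rescaled to nuclear protein-coding genes, 24 of the 40 and 13 of the 17 late members were higher in pup 1, Mlc1 having changed side. The difference between late and early members was not tested.

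**Figure D3:**
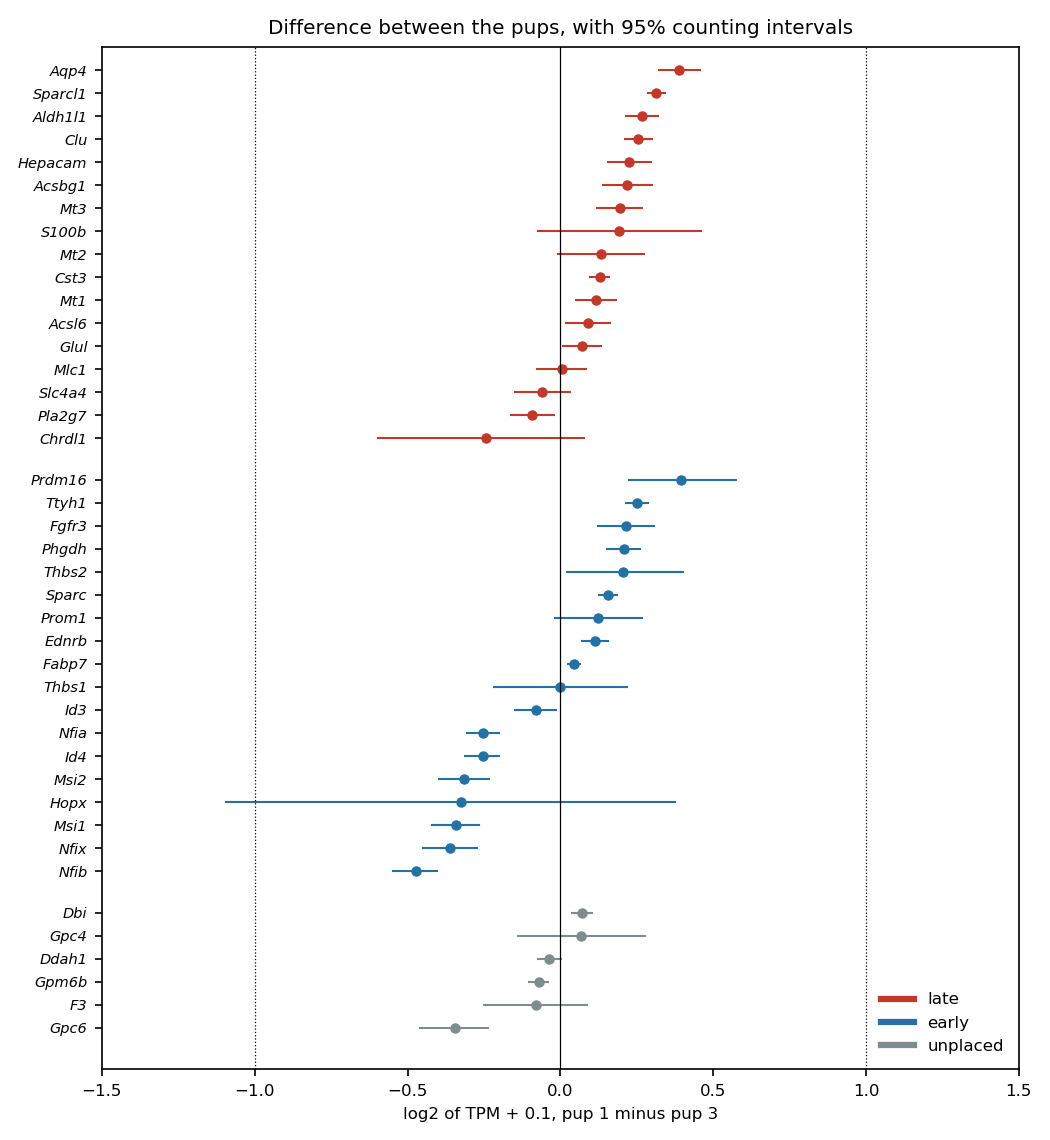
Difference between the pups for each gene, as log2 of TPM after adding 0.1, pup 1 minus pup 3, with bars for 95% intervals that cover counting error only; red marks late, blue early and grey unplaced members, and dotted lines mark a size of 1. No gene's point reaches the dotted lines, Aqp4 is the highest late member at 0.39 and Nfib the lowest early member at -0.47.

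Marker genes of other cell types moved between the same pups. Their lists were chosen with earlier results of these data known, so counts and medians over them are descriptions and not tests. All 9 hypothalamus and forebrain genes were lower in pup 1, with a median of -1.27 and a summed level of 177 TPM in pup 1, against 375 in pup 3. Past 2-fold among them were Oxt, Six6, Hcrt, Dlx2, Dlx1 and Avp, genes of hypothalamic peptides and of forebrain factors. All 5 genes of oligodendrocyte precursors were higher in pup 1, with a median of 0.25 and a summed level of 195 TPM in pup 1, against 176 in pup 3. All 5 cycling genes were lower in pup 1, with a median of -0.10 and a sum of 116 TPM in pup 1 and 119.8 in pup 3. Of these, Pcna, at -0.0011, and Birc5, at -0.010, were nearly equal in both pups. The 5 erythroid genes were all lower in pup 1 as well, with a median of -0.088. Endothelial genes were higher in pup 1 in 5 of 6 cases, with sums of 179.9 TPM in pup 1 and 156 in pup 3. The highest, Cldn5, had 117 TPM in pup 1 and 98.3 in pup 3, and the lowest, Slco1a4, was the exception at -0.73. Microglial genes were higher in pup 1 in 5 of 6 cases, with sums of 134 TPM in pup 1 and 122 in pup 3. Meningeal fibroblast genes were so in 5 of 6 cases and mural genes in 3 of 5. Among genes with a mean count of 100 or more, so were 2 of 3 ependymal and 2 of 3 myelinating oligodendrocyte genes. Immature neuron genes were higher in pup 1 in 4 of 5 cases, with a median of 0.053. Opalin, of mature myelin, had no count in pup 1 and 2 counts in pup 3, and the 5 choroid plexus genes, all under a mean count of 100, summed to 6.20 TPM in pup 1 and 9.90 in pup 3. That difference lay in Ttr, the transthyretin gene, with 22 counts in pup 1 and 146 in pup 3. The other 4 summed to 5.35 TPM in pup 1 and 4.74 in pup 3. Whether these differences, the sex-linked one included, have a part in those of the late and early members was not tested.

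**Figure D4:**
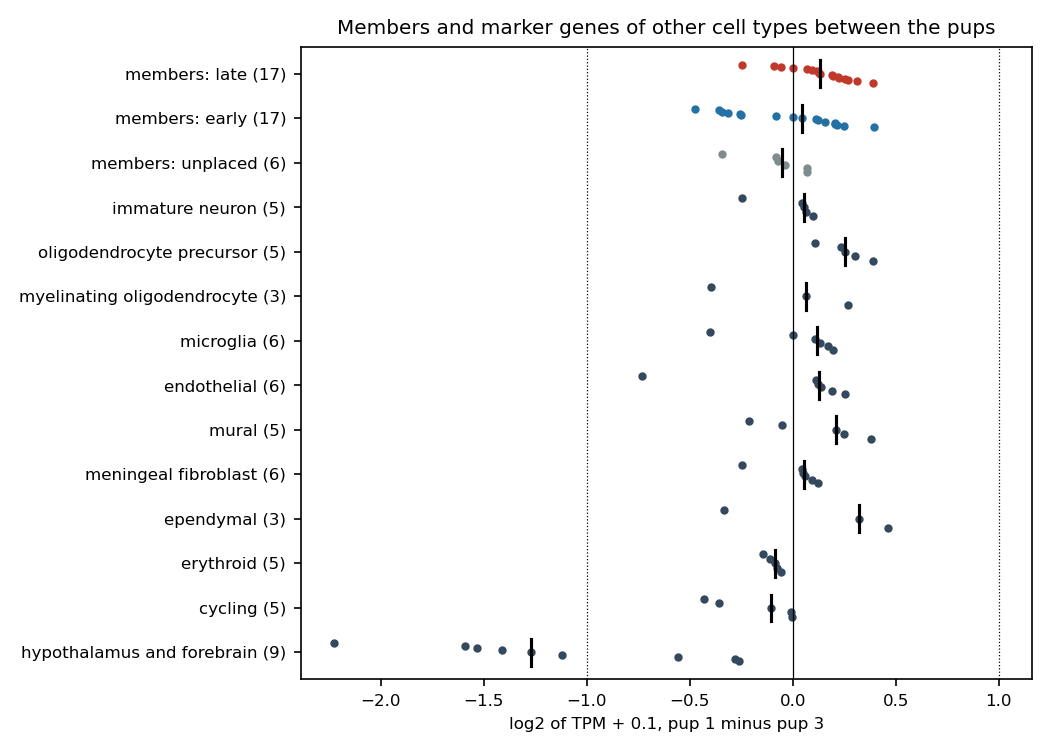
Difference between the pups, as log2 of TPM after adding 0.1, pup 1 minus pup 3, for members by stage and for marker genes of 11 other cell types or regions, each point a gene with a mean count of at least 100 and each bar the median, with the number of genes in brackets. Late members lie mostly to the right of zero with a median of 0.13, and the 9 hypothalamus and forebrain genes all lie to the left with a median of -1.27. The lists were chosen with earlier results of these data known.

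The transcript tables split 30 of the genes into 2 or more transcripts, and 11 had 1. In 26 of the 30 the same transcript led in both pups by its share of the gene's TPM. In Nfia, Prdm16, Prom1 and Ttyh1 the leader differed, but in all 4 the deposited intervals of the leader and another transcript overlapped in both pups, so which transcript led is within the error of the estimate. Of the 26 with the same leader, 5 had such an overlap in at least 1 pup. In 9 genes the leader held over 90%, as in Fabp7, Cst3 and Phgdh, and in 11 it held under 50%. A share of TPM counts molecules per length, so a short transcript can lead with few reads. Shares of reads are therefore given beside those of TPM.

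Glul held the transcript with the widest gap between both measures. A transcript of 681 nt, for a protein of 198 amino acids, held 47.2% of TPM in pup 1 and 43.7% in pup 3. The transcript of 2792 nt for the full enzyme of 373 amino acids held 17.1% of TPM in pup 1 and 17.3% in pup 3, yet 55.1% of reads in pup 1 and 56.1% in pup 3. Another transcript, of 379 nt and 112 amino acids, held 35.8% ± 2.67 of TPM with 11.3% of reads in pup 1 and 12.7% in pup 3. In Sparc a retained intron transcript of 741 nt led with 44.6% ± 0.0424 of TPM and 22.6% of reads, while the one for 302 amino acids held 24.6% ± 0.792 of TPM and 42.7% of reads. In Nfix the transcript for 488 amino acids held 40.3% ± 7.02 of TPM and 24.9% of reads, and that for 494 amino acids 23.5% ± 0.566 of TPM and 57.3% of reads. In Glul, Sparc and Nfix a longer coding transcript led by reads and a shorter transcript by TPM.

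Ddah1 was led in both measures by the transcript for 285 amino acids, with 68.3% ± 3.61 of TPM and 93.7% of reads. In Slc4a4 the transcript for 1079 amino acids held 52.6% of TPM in pup 1 and 61.6% in pup 3, and that for 1094 amino acids, the next, held 34.9% ± 1.06. Of reads they held 77.3% ± 2.91 and 20.6% ± 0.907. Prom1 was divided between a protein of 867 amino acids, with 61.7% of TPM in pup 1 and 47.7% in pup 3, and one of 827, with 38.3% in pup 1 and 48.1% in pup 3. Of reads the longer form held 63.1% in pup 1 and 49.1% in pup 3, and the shorter form 36.9% in pup 1 and 46.6% in pup 3. In Ttyh1 both leaders encode 450 amino acids, the one of 2495 nt with 32.7% ± 2.54 of TPM and 27.2% ± 1.05 of reads and the one of 4353 nt with 32.3% ± 3.29 of TPM and 47.6% ± 2.98 of reads. In Prdm16 the leaders were processed transcripts of 851 and 496 nt, and coding transcripts held 21.1% of TPM in pup 1 and 31.7% in pup 3. By reads the order was turned: coding transcripts of Prdm16 held 78.3% in pup 1 and 85.8% in pup 3, and both leaders together 21.7% in pup 1 and 14.2% in pup 3. In Nfib the transcript for 420 amino acids led with 72.4% of TPM in pup 1 and 57.5% in pup 3, and with 86.3% of reads in pup 1 and 75.6% in pup 3, and the remainder included a pair of retained intron transcripts.

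**Figure D5:**
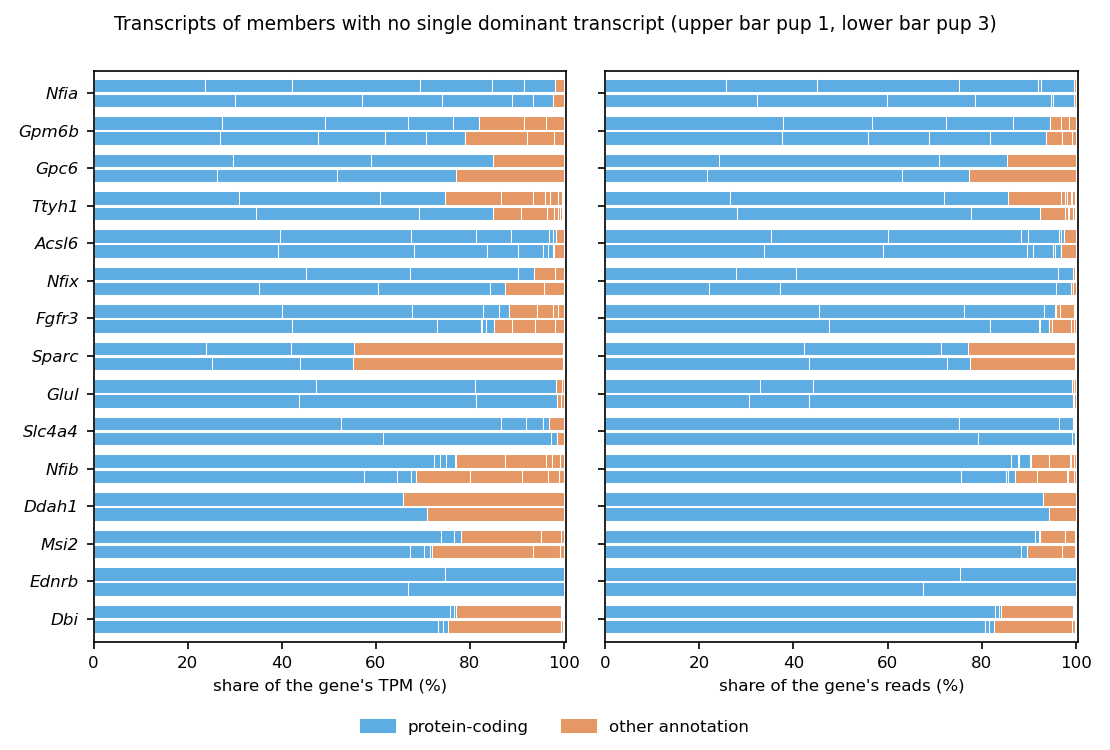
Shares of each gene's TPM (left) and of its reads (right), in percent, held by each transcript, for the 15 genes with a mean level from 10 TPM up whose leading transcript holds under 80% of TPM; the upper bar is pup 1, the lower pup 3, blue is protein-coding and orange any other annotation. In Sparc the orange retained intron transcript holds 44.6% of TPM and 22.6% of reads on average, and in Glul the bars are nearly all blue.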

How the data were processed

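Total RNA of 1 midbrain from each of 2 newborn pups was sequenced, with 10 ng of RNA as the starting amount per the labels. Both pups carry the same donor identifier in the labels, which describe them as separate animals, and their counts of Xist and Ddx3y differ. With 1 library for each, the spread between them may hold technical spread as well. Gene-level and transcript-level tables were deposited for both libraries. According to the accompanying text record, reads were aligned to the transcriptome of build mm10 with GENCODE annotation M4. The aligner, the counting program, their versions and the strand setting were not given in the sources used here.

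The authors' expected counts per gene are estimates, not whole where reads were shared. The deposited TPM values add up to a fixed sum over all rows after division by effective length, and the deposited FPKM values are per length and per library size. The deposited percent columns give each transcript's share of its gene's TPM. The authors' intervals are credibility bounds of TPM, whose level is not stated.

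Symbols came from GENCODE M21 by identifier without version, for 42462 of 43346 genes (98%), and transcript types and protein lengths from the same annotation for 213 of 213 transcripts. Rows that name no gene held 0.001% of counts in each pup. Members and gene lists were chosen with earlier results of these data known. All 41 members are named, and of other lists the highest, the lowest and any past 2-fold. Gfap, Nfic, Pcna and Birc5 were named besides, after their values were seen. Differences and ratios are log2 of TPM plus 0.1, which understates those of low genes, and between pups they were read for genes whose mean count was at least 100. The 95% intervals of differences come from exact binomial intervals of the rounded counts and cover counting error only, since reads are not independent molecules. A single group allows no contrast of conditions, so no p-value is given. For the scaling factors, counts were rounded to whole numbers in edgeR 4.0.16 (TMM) and DESeq2 1.42.0 (size factors), in R 4.3.3. The steps for pup differences were first tested on simulated data. Remaining steps ran in Python 3.11.15 with SciPy 1.17.1, pandas 2.3.3, numpy 2.4.6 and matplotlib 3.10.9. Promoter windows are RefSeq's on GRCm38.p6. Proteins were not used here.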

Additional observations from a re-analysis of the deposited data

How the results depend on the processing

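The count of members at 1 TPM or more was 41 without either replicate, with posterior mean TPM and with rescaled TPM, 39 by FPKM (all but Hopx and Chrdl1) and 37 at a threshold of 5 TPM. The median of the members, 45.1 TPM, was 28.1 by deposited FPKM, 44.4 by posterior mean TPM and 54.1 after rescaling to nuclear protein-coding genes, and stayed at 45.1 without either replicate. The FPKM median is on another scale and is not a lower level. The late minus early difference ran from 0.93 to 1.32 without 1 replicate, from 1.10 to 1.13 over FPKM, posterior mean, rescaled values and a pseudocount of 1, and was 0.097 without members of contested stage. Fewer members enter that last value. No member passed 2-fold between the pups under any scaling, filter or pseudocount tried, edgeR's TMM and DESeq2's size factors included, and the median difference ran from 0.069 to 0.11. Of 19 pairs, 8 or 9 were apart under every alternative, and 8 without either replicate, but not the same ones. Slc4a4 over Aqp4 (-1.02) was lost without replicate 1 (-0.80), with posterior mean TPM (-0.96), a pseudocount of 1 (-0.98) and counts not divided by length (-0.81), and Gpc6 over Gpc4 (1.10) without replicate 2 (0.90). Counts not divided by length also lost Sparcl1 over Fabp7 (-0.90), put Nfix over Nfia apart with the sign turned (-1.43, against 0.52), and turned Sparcl1 over Sparc (0.35) and Glul over Phgdh (-0.50), neither apart. The leading transcript was the same in both pups for 23 of 25 members at 10 TPM or more, and it has no value without a replicate, since it compares both libraries. No paired analysis was possible because there is 1 group only. With 1 library per animal, differences between the pups have no replicate check. Low members (Hopx, Chrdl1, Thbs1 and Thbs2) are limited by depth.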
